A study of Sparassis latifolia with 15 samples.

Results

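Primordia (P) of Sparassis latifolia were compared with mycelium that had just been exposed to light (L) by RNA-seq, with 3 libraries in each group. The members are these 6 RNA-seq libraries of the 15 samples in the series, chosen by their labels, and all 11118 genes that are listed in both deposited count tables, of 11204 gene IDs in either. All samples came from the strain SP-C. The L mycelium had grown in darkness for 28 d and was then given 1 h of white light at 200 lx. The P samples were primordia formed from mycelium of the dark group, not from L. That mycelium was cultured for 2 further weeks with 14 h of light and 10 h of darkness per day. According to the labels L was taken at day 30 and P at day 42, an age of L other than that in the study's methods. In 3 further libraries the mycelium was kept in darkness until day 28 (D), and their levels are given for orientation. P and L differ in age, in the length of the light exposure and in tissue at the same time, and these cannot be told apart. A bulk sample of primordia can hold mycelium too, and fewer cells of a type and less RNA per cell cannot be told apart.

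In many mushroom-forming fungi the mycelium grows vegetatively in the dark, and light together with other cues starts the formation of hyphal knots that become primordia, the first stage of the fruiting body. Blue light is sensed through white collar proteins. Hydrophobins, small secreted proteins that coat aerial hyphae, and enzymes of the cell wall, of lipid and of sugar metabolism are known to change during this transition in model mushrooms. The question asked here is which transcripts separate the young fruiting structure from mycelium that has only begun to respond to light.

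The 6 libraries held 20798173 to 26474906 counts in genes, and 10953 to 10979 genes were detected in each. Between 4.13% and 4.89% of the counts in L, and between 5.98% and 9.18% in P, fell on the 10 most abundant genes. In the study's read summary every P library had a lower share of mapped reads than every L library. P2 was the lowest of P and L2 the lowest of L. Libraries stood apart from their groups. On the first principal component, with 44.5% of the variance, P2 (score 62.1) and L2 (41.5) lay at one end, and the other 4 libraries lay between -44.6 and -11.0. The second component, with 28.1%, separated the groups without overlap, with L between -43.4 and -14.2 and P between 10.9 and 40.2. P2 had a Pearson correlation of log2 levels of 0.964 with L2, against 0.933 with P1 and 0.900 with P3, all across genes, which are not independent replicates. Between P2 and P3, replicates of one group, 740 genes differed by more than 4-fold, but only 205 did between P2 and L2. The cause was not tested, and values without L2 and P2 are given beside each described gene or ID named by size whose fold change they moved by more than 1.5 times, and for some others. Leaving out L2 and P2 was chosen after seeing the data and keeps only L1, L3, P1 and P3. The primordia were also the more variable group. Their median SD of log2 level per gene was 0.45, against 0.29 in L, and the SD was larger in P for 7368 of 10663 genes.

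**Figure D1:**
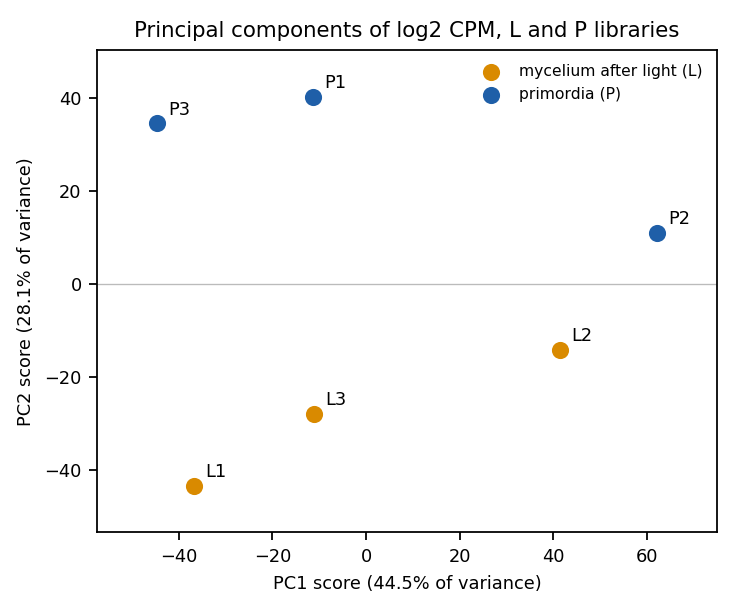
Scores of the 3 libraries of light-exposed mycelium (L, orange) and the 3 of primordia (P, blue) on the first (x axis) and second (y axis) principal component of log2 CPM, where each point is a library. P2 and L2 lie together on the right, at 62.1 and 41.5, while the height of the points separates all P libraries from all L libraries.

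No gene passed edgeR's quasi-likelihood test for P vs. L. A call asked for a Benjamini-Hochberg adjusted p no higher than 0.05 together with a change of more than 1.2-fold, and of 10663 genes tested 0 (0%) were called higher and 0 (0%) lower in P. The lowest adjusted p was 0.179. At an unadjusted p under 0.05 there were 383 genes higher in P (3.59%) and 467 lower (4.38%). With the Wald test of DESeq2, 87 of 10441 genes were called higher (0.833%) and 98 lower (0.939%). In 713 genes (6.69%) all P libraries lay above all L libraries, and in 650 (6.1%) all lay below. Large changes were limited to a minority of the 10663 genes tested. The log2 fold change was above 1 for 400 genes and below -1 for 430. It was above 2 for 65 genes and below -2 for 103, while the median over all genes was -0.01 and the median of the absolute values 0.26. The biological coefficient of variation, the spread between replicates beyond counting error, was 38.8%.

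The 87 genes that DESeq2 called higher in P had a median level of 121 CPM (counts divided by the scaled library total, times 1e+06) in P, 27.5 in L and 17.7 in D. The 98 called lower had 15.5 CPM in P, 64.0 in L and 90.6 in D. The D libraries played no part in these calls. In both sets the median level in L lay between those in D and P. With L2 and P2 left out, a choice made after seeing the data, DESeq2 called 324 genes higher (3.03%) and 307 lower (2.87%). In that setting edgeR again called 0. Of the 87, 71 remained in the larger list, which is 81.6% of the first list and 21.9% of the second. For the lower genes 84 of 98 remained, 85.7% and 27.4%. Both lists rest on L1, L3, P1 and P3, so their overlap does not measure how well the calls would repeat in new samples.

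P2 was often the single primordia library that did not lie beyond L on the side of the others. In such genes P2 could lie inside the range of L or beyond it on the opposite side. In 1436 genes (13.5%) P1 and P3 both lay above all L libraries and P2 did not, and in 1275 genes (11.96%) they lay below and P2 did not. The same pattern with P1 as the exception held for 277 genes above and 262 below, and with P3 for 459 and 648. No gene was switched on or off by the count threshold used, which asked for at least 10 counts in every library of one group and at most 3 counts summed over the other. It found 0 genes in either direction of the 11118, and 1 gene on only in L when P2 was left out.

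**Figure D2:**
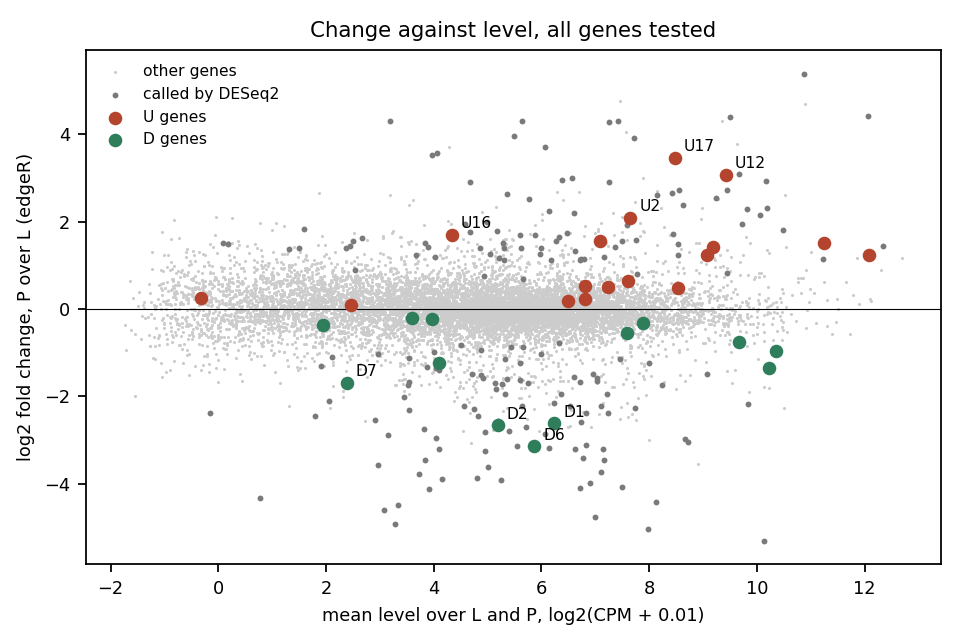
Log2 fold change of P over L from edgeR (y axis) against the mean level over L and P in log2 CPM (x axis) for the 10663 genes tested. Light grey points are genes without a call, dark grey points are the genes called by DESeq2, and red and green points are the described genes higher (U) and lower (D) than in darkness; U17 and U12 lie at 3.46 and 3.07, D6 at -3.14.

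The count tables give gene IDs without names, and 0 of them matched the reference annotation at hand, which belongs to another strain. Names are known for 30 genes that the study describes and for GAPDH. The study listed 17 of the 30 (U1 to U17) as higher and 13 (D1 to D13) as lower than in darkness, both in L and in P. It took genes whose RNA level and nearby ATAC-seq signal changed in the same direction. The RNA part of that choice used these same libraries, so the direction of these genes in P vs. L is not independent evidence. In the study's qRT-PCR U1, U9, U14, U16, D5, D8, D9 and D13 were exceptions to the pattern of its sequencing data. All 17 U genes had a log2 fold change above 0 between L and P, from 0.08 to 3.46 with a median of 1.23. All 13 D genes lay below 0, from -3.14 to -0.22 with a median of -0.97. Over all genes tested 49.1% lay above 0. edgeR called 0 of the 30 genes. DESeq2 called U12 and U17 higher, 2 of 17 beside 0.833% of all genes, and D1, D2 and D6 lower, 3 of 13 beside 0.939%. The groups did not overlap for U16 and U17, 2 of 17 beside 6.69% of all genes, which is near that share, nor for D1, D2 and D10, 3 of 13 beside 6.1%. Without L2 and P2, DESeq2 called 7 U genes (U2, U11, U12, U14, U15, U16 and U17) and 4 D genes (D1, D2, D6 and D7), beside 3.03% and 2.87% of all genes. For U2, U12 and U15 this post hoc removal took out the P library inside the range of L. For U11, U14, D6 and D7 it took out L2, the only L library that overlapped with P. The removal was chosen after seeing the data, so none of the calls in that setting adds support. Without L2 and P2 the medians were 0.998 and -1.02.

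**Figure D3:**
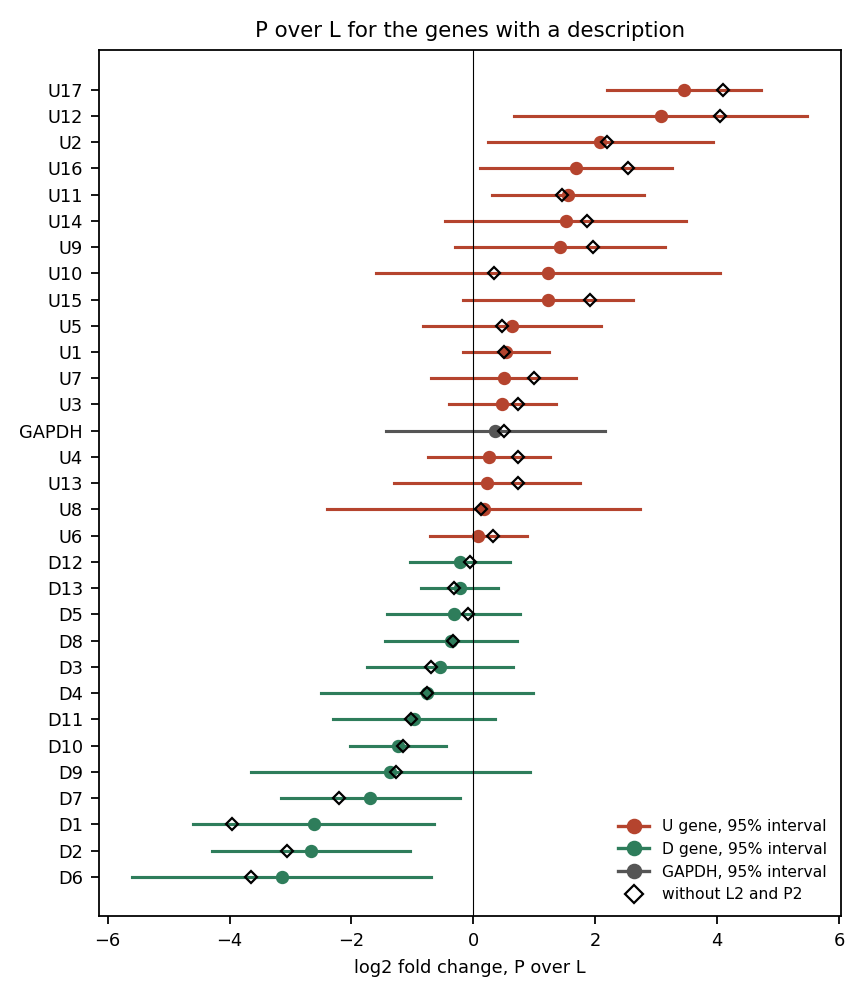
Log2 fold change of P over L (x axis) for the 30 described genes and GAPDH (y axis), with dots for edgeR's estimate from all 6 libraries, bars for its 95% interval and open diamonds for the estimate without L2 and P2. The intervals of 5 U genes lie above 0 and those of 5 D genes below, before adjustment for the number of genes tested, beside 3.59% and 4.38% of all genes at an unadjusted p under 0.05, and U17, at 3.46, is the highest.

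Light sensing comes first. U15 (Gglean010591) is described as white collar 1 protein, the blue-light photoreceptor and transcription factor known from Neurospora. It stood at 201, 400.0 and 343 CPM in L1, L2 and L3 and at 1063, 231 and 980.1 CPM in P1, P2 and P3, against 90.7 to 127 CPM in D. P1 and P3 were above every L library and P2 was within their range. The log2 fold change of 1.23 (SE 0.59, 95% interval -0.17 to 2.62) missed the threshold in edgeR (adjusted p = 0.670). Without L2 and P2 the log2 value was 1.92. DESeq2 did not call U15 on all 6 libraries (adjusted p = 0.384) and gave an adjusted p of 4.56e-05 without L2 and P2. That removal was chosen after seeing the data and takes out the only P library within the range of L, so it adds no support. U11 (Gglean007619) is described as gluconate transport inducer 1, which in fission yeast induces the uptake of gluconate. Its level was 44.9, 99.4 and 62.3 CPM in L and 205, 320.1 and 86.9 CPM in P. Only P3 lay within the range of L, below L2. With a log2 fold change of 1.55 (SE 0.53, 0.30 to 2.80) its edgeR adjusted p was 0.534. In D this gene had 3.54 to 7.66 CPM, so on the log2 scale most of its distance from darkness was already present in L.

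The cell wall surface is represented by U10 (Gglean005727), the fruiting body protein SC4 precursor, named after a hydrophobin of Schizophyllum commune that coats air channels in fruiting bodies. It was among the most abundant described transcripts, with 368, 5109 and 2295 CPM in L and 1684, 14899 and 1666 CPM in P. The second replicate was the highest in both groups, and P1 and P3 both lay below L2 and L3. The mean in P was 2.35 times that in L, with a log2 fold change of 1.23 and an interval from -1.59 to 4.04. Without L2 and P2 the value was 0.35, and without P2 alone it turned to -0.64. A marker gene by which the P libraries could be checked as primordia is thus not given by SC4, whose groups overlap, and no other was named.

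Among the oxidoreductases U17 stood out. U17 (Gglean012354), described as dehydrogenase citC after an enzyme of the citrinin pathway of Monascus, had 30.8, 87.2 and 56.9 CPM in L and 995, 464 and 502 CPM in P. Every P library was above every L library by a wide margin. The log2 fold change was 3.46 (SE 0.53, 2.20 to 4.71), a ratio of means of 11.2. It ranked 11th of all genes by p in edgeR, where its adjusted p was 0.253, and the adjusted p of DESeq2 was 1.09e-08. Leaving out single libraries moved the log2 value between 3.01 and 3.87, and without L2 and P2 it was 4.10. Dark mycelium held 4.67 to 11.4 CPM, so that the 3 groups formed 3 separate steps. U1 (Gglean000572), dehydrogenase patE, is named after a patulin enzyme of Penicillium. It had 93.9, 85.1 and 90.4 CPM in L and 82.2, 139 and 178 CPM in P. P2 and P3 were above all L libraries and P1 was below them. The log2 fold change was 0.54 with an interval from -0.18 to 1.25.

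The oxidoreductases on the D list were uneven. D10 (Gglean009487), lactate 2-monooxygenase, which converts lactate to acetate, had 25.5, 22.7 and 23.2 CPM in L and 6.32, 9.38 and 15.4 CPM in P. The L libraries were nearly equal and all P libraries were below them. The log2 fold change was -1.24 (SE 0.34, -2.03 to -0.44, edgeR adjusted p = 0.501), and leaving out single libraries kept it between -1.59 and -0.98. D4 (Gglean001940), phenol 2-monooxygenase, an enzyme that hydroxylates phenol to catechol, had 1119.8, 895 and 1039 CPM in L and 1160.2, 550.2 and 113 CPM in P. P1 was the highest of the 6 and P3 the lowest, so the primordia spanned the whole range. D9 (Gglean009036), an aldo-keto reductase, had 3071, 420.4 and 1659 CPM in L and 1264, 105 and 691 CPM in P, with the second replicate the lowest in both groups. By replicate number, which no source states to be a pairing, the log2 ratio of P to L for D9 was -1.28, -2.01 and -1.26, although the groups overlapped. The edgeR fit with replicate number as a block gave D9 an adjusted p of 0.305. D12 (Gglean011299), named after an aflatoxin-pathway P450 of Aspergillus, lay at -0.22 with an interval from -1.03 to 0.60.

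**Figure D4:**
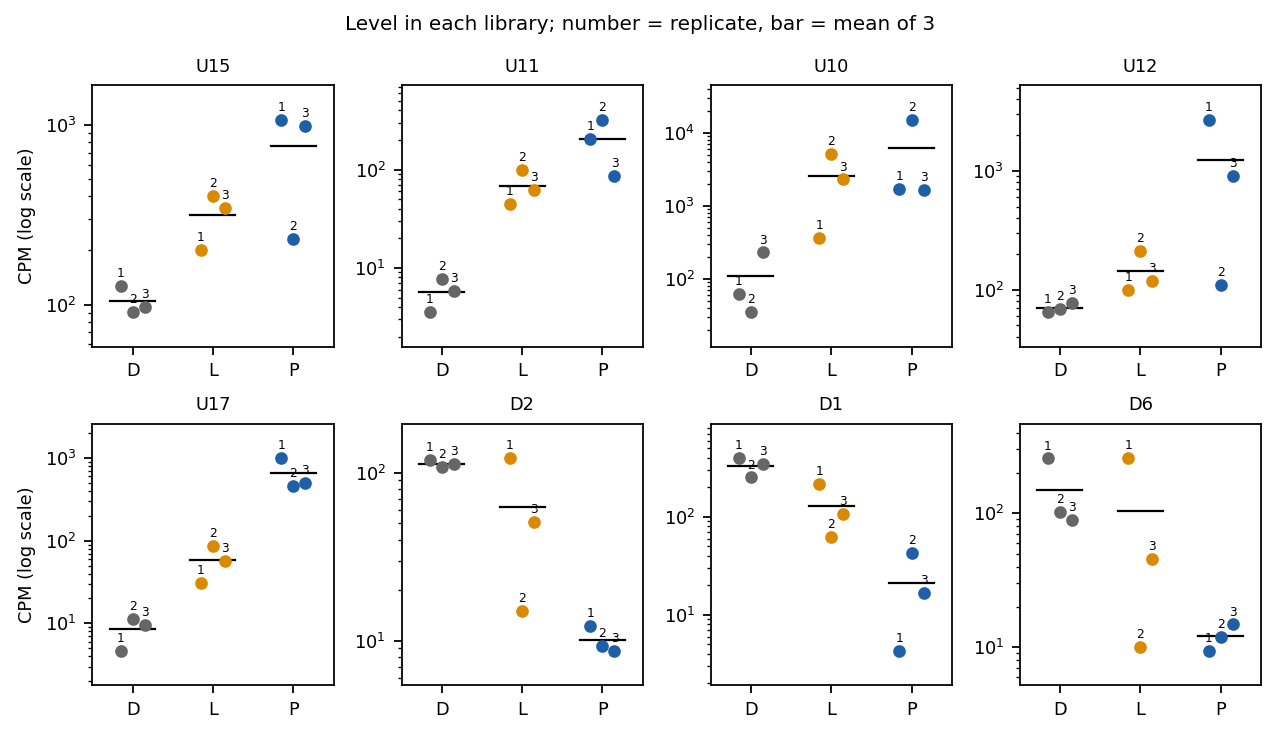
Level in CPM on a log scale (y axis) of 8 described genes in each library of D, L and P (x axis), with the replicate number at each point and a bar for the mean of 3. U17 forms 3 separate steps, P2 falls back into the range of L for U15 and U12, and the 3 P libraries of D2 and D6 lie close together at 8.72 to 14.8 CPM.

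Transporters on the D list had the lowest log2 fold changes, together with a lipid enzyme. D6 (Gglean005508), an uncharacterized transporter, had 258, 10.0 and 45.7 CPM in L and 9.44, 11.99 and 14.8 CPM in P. The primordia were uniformly low and L2 was as low as they were. The log2 fold change was -3.14 (SE 1.04, -5.60 to -0.69), with an adjusted p of 0.534 in edgeR and 0.0340 in DESeq2, and without light replicate 1 it was -1.24. D1 (Gglean000619), a transporter of the major facilitator superfamily, which moves small solutes across membranes, had 219, 62.5 and 107 CPM in L and 4.31, 43.1 and 16.7 CPM in P. The groups did not overlap, though P2 came near L2. At -2.61 (SE 0.84, -4.59 to -0.64) the adjusted p was 0.534 in edgeR and 0.0499 in DESeq2, and without L2 and P2 the log2 value was -3.96. On the U list, U3 (Gglean002700), the ATM1 transporter that in yeast serves iron-sulfur cluster assembly outside mitochondria, had a log2 fold change of 0.48 with P2 inside the range of L.

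Of the lipid genes D2 (Gglean000957), the fatty acid desaturase that turns oleic into linoleic acid, had 122, 14.98 and 51.0 CPM in L and 12.2, 9.34 and 8.72 CPM in P. All P libraries were below all L libraries, L2 by a small margin. L1 was at the level of darkness, where D2 had 108 to 119 CPM. For D2 the log2 value was -2.66 (SE 0.69, -4.29 to -1.03), with an adjusted p of 0.501 in edgeR and 0.00814 in DESeq2, and without L2 and P2 it was -3.05. D7 (Gglean006573), an alpha/beta hydrolase, had 15.05, 2.77 and 6.04 CPM in L and 1.58, 2.94 and 3.004 CPM in P, and L2 again lay among the primordia. U8 (Gglean003319), a phospholipid methyltransferase of the kind that makes phosphatidylcholine, followed the replicate more than the group. It had 9.44, 184 and 58.7 CPM in L and 25.7, 213 and 48.1 CPM in P, a log2 fold change of 0.17 with an interval from -2.40 to 2.74.

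Among the genes of RNA and protein turnover U12 had the second highest log2 fold change of the described genes. U12 (Gglean008695) is described as a RING finger protein with a LON peptidase N-terminal domain, a type that marks proteins with ubiquitin. It had 99.2, 210.1 and 119 CPM in L and 2681, 109 and 903 CPM in P. P1 and P3 were above every L library, by several-fold, and P2 lay among them. Over all libraries the log2 value was 3.07 (SE 1.02, 0.67 to 5.48), with an adjusted p of 0.534 in edgeR and 0.0243 in DESeq2. Without P1 it was 1.76, and without L2 and P2 4.05. U16 (Gglean010678), cysteine proteinase 1, a protein-degrading enzyme, had 3.18, 14.3 and 10.4 CPM in L and 20.6, 14.97 and 57.6 CPM in P. All P libraries were above all L libraries, P2 only just above L2, at a log2 fold change of 1.69 (0.12 to 3.27), or 2.54 without L2 and P2. U14 (Gglean008871), a putative methyltransferase, had 333, 2397 and 1006 CPM in L and 1409, 6004 and 3443 CPM in P, and only P1 lay below the highest L library. U6 (Gglean003085), the splicing factor CWC22, lay at 0.08 with an interval from -0.72 to 0.88.

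U9 (Gglean005067), an SH3 domain-containing protein, a domain that binds proline-rich partners in signalling, rested on a single library. Its level was 201, 363 and 378 CPM in L and 1865, 321 and 376 CPM in P, so P2 and P3 lay inside the range of L. The log2 fold change of 1.42 was 0.11 without P1 and 1.97 without L2 and P2. Of the 5 hypothetical proteins, U2 (Gglean002577) had the largest log2 fold change, 2.08 (0.23 to 3.94), from 108, 24.9 and 91.5 CPM in L to 395, 71.7 and 514 CPM in P. P1 and P3 were above all L libraries and P2 lay inside their range. By replicate number, which no source states to be a pairing, the log2 ratio of P to L for U2 was 1.87, 1.52 and 2.49. The edgeR fit with replicate number as a block gave U2 an adjusted p of 0.164. Signs by number did not agree for every gene: for number 2 the ratio was -0.94 for U12 and -0.79 for U15. The other hypothetical proteins, U4, U5, U7 and U13, lay between 0.23 and 0.64, and U4 rested on 58 raw counts over the L libraries and 60 over those of P.

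Of the enzymes of amino acid and one-carbon metabolism, D3, D11 and D13, none was called by edgeR or DESeq2. D11 (Gglean010344), the cobalamin-independent methionine synthase, was the most abundant of them, with 2306, 1114 and 1739 CPM in L and 1531, 682 and 459 CPM in P. P1 lay inside the range of L and the other P libraries below it, at a log2 fold change of -0.97 (-2.30 to 0.35). D held 5216 to 16700.3 CPM of this transcript, so that its distance from darkness lay mostly in L. D3 (Gglean001542), a putative glycine dehydrogenase of the glycine cleavage system, lay at -0.55. D13 (Gglean011958), a trans-sulfuration enzyme of the cysteine and methionine pathway, lay at -0.22 with an interval from -0.85 to 0.41, and its levels in both groups lay between 10.6 and 17.3 CPM. D8 (Gglean008033), the meiotic chromosome axis protein hop1, had 6.93, 3.05 and 2.86 CPM in L and 2.83, 2.40 and 4.99 CPM in P, with a log2 fold change of -0.37.

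For glycolysis, D5 (Gglean003676), a phosphoglycerate mutase, had 343, 191 and 245 CPM in L and 286, 89.6 and 267 CPM in P. GAPDH (Gglean007906), the glycolytic enzyme that the study used as its reference gene, had 2864, 822 and 1820.2 CPM in L and 4369, 647 and 2241 CPM in P. For both genes L2 and P2 were the lowest of their groups. GAPDH had a log2 fold change of 0.36 with an interval from -1.43 to 2.16, a width that allows a difference of more than 2-fold in either direction between L and P.

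Genes without a name had the largest changes. By the rule for IDs, which took the largest log2 fold changes among genes that averaged 10 CPM or more and whose groups did not overlap, the higher ones were Gglean000758 and Gglean008381. Gglean000758 had 20.4, 138 and 94.1 CPM in L and 3809.6, 211 and 6970.3 CPM in P, so that P2 was only just above L2. Its log2 fold change of 5.39 (SE 1.35, 2.20 to 8.57) had an adjusted p of 0.501 in edgeR and 1.26e-05 in DESeq2, and without L2 and P2 it was 6.57. Gglean008381 had 47.5, 472 and 599 CPM in L and 6405, 6432 and 11818 CPM in P, and here all P libraries were far above L. At a log2 fold change of 4.42 (SE 0.99, 2.09 to 6.76) its adjusted p was 0.426 in edgeR and 2.12e-06 in DESeq2.

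The lower ones were Gglean005681 and Gglean009143. Gglean005681 had 335, 4369.9 and 1832 CPM in L and 33.5, 35.1 and 102 CPM in P, and 1277 to 7054 CPM in D. Primordia were low and both kinds of mycelium were high. Its log2 fold change was -5.31 (SE 1.06, -7.80 to -2.82, edgeR adjusted p = 0.345, DESeq2 adjusted p = 7.84e-08). L2 was the highest library, and the value was -4.29 without it and -3.98 without L2 and P2. Gglean009143 had 1294, 20.8 and 152 CPM in L and 12.8, 15.4 and 17.5 CPM in P, so that the primordia were uniform and L2 lay close to them. The log2 fold change was -5.04 (-8.28 to -1.79), and -2.54 without light replicate 1.

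**Figure D5:**
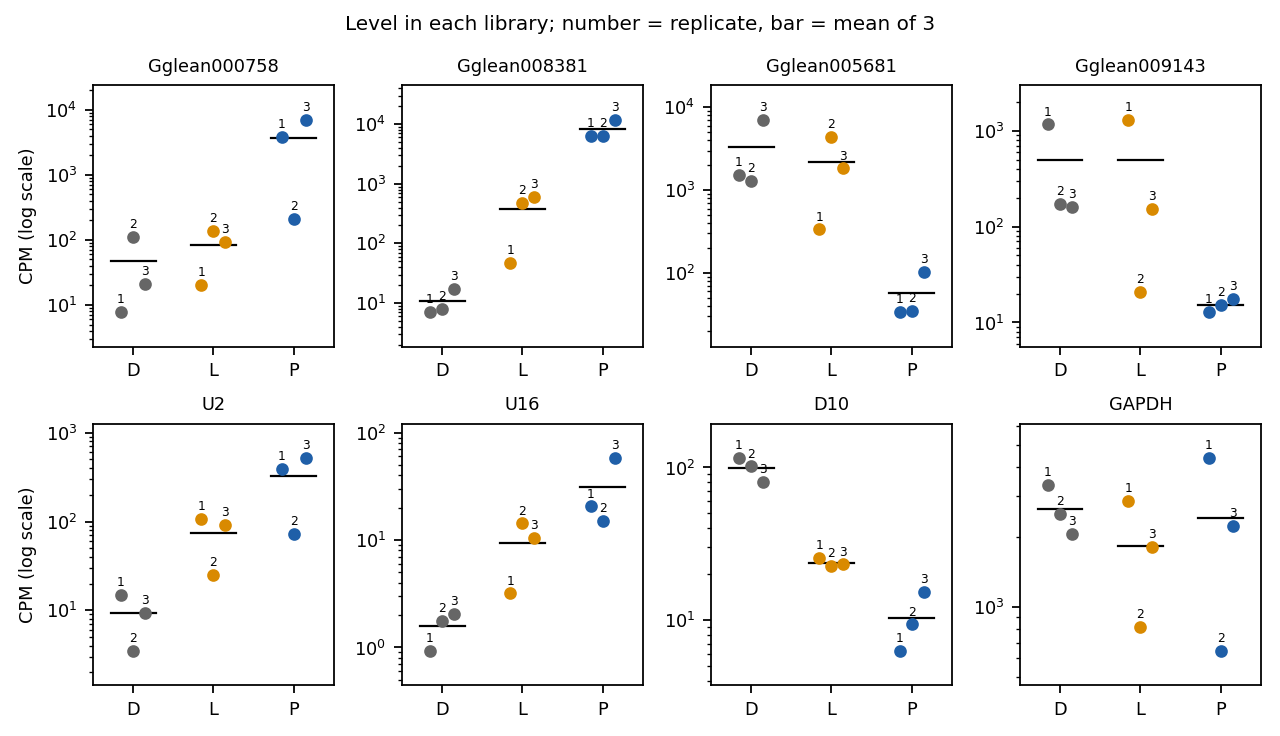
Level in CPM on a log scale (y axis) of 4 genes without a name, 3 described genes and GAPDH in each library of D, L and P (x axis), with the replicate number at each point and a bar for the mean of 3. The 3 P libraries of Gglean008381 lie at 6405 to 11818 CPM, above all others of that gene, and L2 and P2 are the lowest points of their groups for GAPDH.

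When the D libraries were added to the fit, so that all 9 libraries shared an estimate of the spread, edgeR called 2 of 10701 genes higher (0.0187%) and 2 lower (0.0187%) in P than in L. These 4 genes are named after their values were seen, and in the fit of the 6 libraries their adjusted p was 0.179 to 0.253. Gglean011195 had 50.4, 84.9 and 57.4 CPM in L and 808, 1623 and 1697 CPM in P, with 31.5 to 38.4 CPM in D. L was slightly above the dark level and all P libraries were far above both, with a log2 fold change of 4.42 (adjusted p = 0.0116). Gglean006347 had 112, 106 and 102 CPM in L and 279.99, 362 and 337 CPM in P, at 1.62 (adjusted p = 0.0334). The order was D, L and P in every library, since D held 34.1 to 42.1 CPM.

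Both genes called lower in that fit were low in every primordia library. Gglean004648 had 253, 148 and 143 CPM in L and 39.2, 24.0 and 30.0 CPM in P, at -2.54 (adjusted p = 0.0334), and its 152 to 186 CPM in D were within the range of L. Gglean011753 had 62.1, 49.3 and 54.7 CPM in L and 15.9, 13.3 and 18.4 CPM in P, at -1.80 (adjusted p = 0.0334). For this gene D was above L, at 84.3 to 120.2 CPM.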

How the data were processed

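The authors trimmed the reads with cutadapt, mapped them to the SP-C genome with STAR and counted them per gene with HTSeq 0.6.1, and deposited raw counts per gene and library. No source used here gives the strand setting. The deposited fold changes and p-values of the authors, against darkness, and the peak lists were not used. Counts of L and P come from separate tables whose D columns are identical for all 11118 shared genes; 43 genes listed in only one table (at most 6 counts in a library) were left out.

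Genes were kept with filterByExpr, totals were scaled by TMM and P was tested against L with edgeR 4.0.16 (quasi-likelihood, Benjamini-Hochberg) on the 6 libraries, in R 4.3.3. Alternatives used DESeq2 1.42.0 and limma 3.58.1. Each SE is the unshrunken log2 fold change over the root of its F statistic, in absolute value, and the 95% intervals follow from them, so neither adds evidence to p. CPM levels use TMM over all 9 libraries. Figures were drawn with matplotlib 3.10.9. The procedure was tested on simulated data.

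Named are the 30 described genes, GAPDH and 2 IDs per direction by size, and, chosen after their values were seen, the 4 IDs called in the fit of all 9 libraries. Members and lists were chosen with earlier results of these data known. Replicates are biological per the study's methods. Deviations of same-numbered libraries correlated (r = 0.14, 0.51 and 0.32 for numbers 1, 2 and 3), though L1 correlated best with P3 (0.37). No source states a pairing, but all values exceed 0.1, so the replicate block is given as the paired alternative.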

Additional observations from a re-analysis of the deposited data

How the results depend on the processing

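edgeR called 0 genes also with DESeq2's size factors, with library totals, with no filter, with a filter at 10 CPM, with the replicate block (paired fit, 0 calls, lowest adjusted p = 0.100), with a fold above 2 and with each library left out in turn (0 to 0 calls), and limma voom called 0. DESeq2 called 185 genes (87 higher, 98 lower). The fit of all 9 libraries called 4 (2 and 2). Chosen after seeing the data, leaving out L2 and P2 together gave 0 calls in edgeR and 631 in DESeq2 (324 and 307), and voom with sample weights, which were 8.86 for L3 and 0.23 for P2, gave 571 (318 and 253). The number of calls thus depends on the tool and on these libraries, and the cause was not tested.

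Of the 31 described genes, 21 kept their sign in each of the 17 alternatives that tested them. With each library left out in turn, the log2 fold change ran from -0.026 to 0.54 for U4, -0.075 to 1.17 for U5, -0.21 to 0.26 for U6, -1.20 to 1.49 for U8, -0.64 to 2.19 for U10, -0.23 to 0.87 for U13, -0.60 to 0.081 for D5, -0.71 to 0.16 for D8, -0.50 to 0.059 for D12 and -0.40 to 0.84 for GAPDH. Voom with sample weights gave -0.27 for U6, -0.69 for U8, -0.080 for U10 and 0.028 for D5. Over the alternatives the adjusted p ran up to 0.9999 or above for every described gene, and down, in DESeq2 without L2 and P2, to 2.3e-14 for U17, 1.3e-11 for U12, 5.4e-09 for U2, 7.6e-08 for D1, 1.6e-07 for D2, 1.6e-05 for D6, 4.6e-05 for U15, 0.0044 for U16, 0.0053 for D7 and 0.041 for U14. For U11 that setting gave 0.0496 and voom with sample weights 0.042, and for D10 the latter gave 0.026. Depth limits U4, which rested on few counts.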
